A study of Mus musculus with 4 samples.

Results

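The 10 genes described here, Fbxw13, Fbxw14, Fbxw15, Fbxw16, Fbxw18, Fbxw19, Fbxw20, Fbxw21, Fbxw24 and Fbxw28, are members of an Fbxw family of F-box genes that is expanded in the mouse and abundant in its oocytes. They were taken by name from an RNA-seq expression table, and all 10 of 10 were found among its 21957 genes. The study asked how TubA (tubastatin A), an inhibitor of the deacetylase HDAC6, alters the transcriptome of oocytes that mature in culture. Its female mice were injected with pregnant mare serum gonadotropin before oocytes were collected. Fully grown oocytes of B6D2F1 females (C57BL/6 x DBA), freed of cumulus cells, were collected at the germinal vesicle stage after 0 h of culture (GV) or after 12 h without TubA (MII, collected with a polar body), with 10 µM TubA (TubA-10) or with 20 µM TubA (TubA-20). There was 1 library per condition, made from a pool of 100 oocytes according to the methods of the study, so no difference below has a replicate error or a p-value. Elsewhere the study writes of single oocytes, and which of these applies to the libraries was not settled here. The sample titles give the doses used here, while the treatment field of the labels gives other doses for both TubA samples.

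F-box proteins are the part of an SCF ubiquitin ligase that picks the substrate. The F-box at one end binds Skp1, which joins the protein to the cullin Cul1 and the RING protein Rbx1, and the WD40 repeats that give Fbxw proteins their name hold the substrate. The grown oocyte stops transcribing before it resumes meiosis, so mRNA amounts during maturation are set by storage, poly(A) tail length and decay rather than by new synthesis. The libraries were made from RNA bound to oligo(dT), and an mRNA that lost its tail cannot be told apart from one that was degraded. If the libraries are pools, fewer oocytes with an mRNA and less mRNA per oocyte cannot be told apart either.

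All 10 genes lie on the minus strand of chromosome 9 (GRCm38), inside a run of 14 Fbxw genes of the table that spans chr9:109139447-109790670 (651.2 kb). Fbxw21 (chr9:109139447-109162041), Fbxw13 (chr9:109179227-109195975) and Fbxw20 (chr9:109217432-109234754) open the run. Fbxw14 (chr9:109270790-109287676), Fbxw28 (chr9:109322886-109339659), Fbxw16 (chr9:109432316-109449140) and Fbxw19 (chr9:109476654-109495875) follow. Fbxw15 (chr9:109552602-109568262), Fbxw24 (chr9:109601116-109626057) and Fbxw18 (chr9:109676734-109702700) complete the set, and the other 4 genes of the run are Fbxw22, Fbxw25, Fbxw26 and Fbxw27. The annotation gives every member as protein-coding, with a principal transcript of 10 exons and a coding sequence of 1395 to 1410 bases.

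The upstream sequences of the family show how alike these neighbours are. The promoter table of RefSeq (GRCm38.p6) held 9 of the 10 members. Between pairs of them the identity of the 300-base promoters was 64.7% to 97.0%, with a median of 83.2%. Below are the 250 bases before the start of Fbxw24, the most abundant member in all 4 libraries, at chr9:109626060-109626309 (minus strand), and of Fbxw15, a member that fell during maturation, at chr9:109568263-109568512 (minus strand). Capitals mark CAGCTG, a form of the E-box CANNTG. The promoters of this pair were 90.4% identical.
Fbxw24: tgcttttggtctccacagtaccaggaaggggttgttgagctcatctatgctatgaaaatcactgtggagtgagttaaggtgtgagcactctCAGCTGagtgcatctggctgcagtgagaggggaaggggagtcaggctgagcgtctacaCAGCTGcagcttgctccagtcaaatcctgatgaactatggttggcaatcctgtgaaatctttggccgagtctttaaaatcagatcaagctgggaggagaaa
Fbxw15: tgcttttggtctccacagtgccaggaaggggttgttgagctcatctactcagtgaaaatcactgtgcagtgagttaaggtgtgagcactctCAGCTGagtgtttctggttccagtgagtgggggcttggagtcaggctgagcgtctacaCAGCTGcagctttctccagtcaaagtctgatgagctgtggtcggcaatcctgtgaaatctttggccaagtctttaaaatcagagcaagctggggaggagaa

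The word CAGCTG reads the same on both strands and is contained in CANNTG. It was present in 9 of 9 member promoters and in 16.1% of the 27025 promoters of the same length in the table. It occurred at 2 places in 8 members and at 1 in Fbxw20. CANNTG was in 9 of 9 and in 72.1% of all. On either strand, CCAAT was in 1 of 9 (Fbxw16; 37.9% of all), whereas TATAAA (14.2% of all), TAATTG (8.15%) and TAATTA (5.31%) were in 0 of 9. A match of letters is a description of these windows and not a binding site. The member promoters are alike (median identity 83.2%), so the members are not independent cases to set against the share of all promoters. The 40 bases around the copy of CAGCTG nearest to the start, which lay 80 to 125 bases before it, are shown for each distinct form, with CAGCTG in capitals. Fbxw14, Fbxw19 and Fbxw28 had identical letters there, as did Fbxw18 and Fbxw24.
Fbxw14, Fbxw19 and Fbxw28: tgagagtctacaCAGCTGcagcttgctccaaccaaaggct
Fbxw18 and Fbxw24: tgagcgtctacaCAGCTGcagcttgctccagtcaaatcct
Fbxw15: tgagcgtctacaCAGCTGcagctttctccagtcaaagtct
Fbxw16: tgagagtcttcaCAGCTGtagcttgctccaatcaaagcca
Fbxw20: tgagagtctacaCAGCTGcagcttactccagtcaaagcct
Fbxw21: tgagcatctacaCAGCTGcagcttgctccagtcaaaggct

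The coding sequences were 79.1% to 99.1% identical over the 45 pairs of members, with a median of 83.2%. Fbxw14 and Fbxw28 were a near-identical pair at 99.1%, and no other pair exceeded 88.4% (Fbxw16 and Fbxw19). Fragments from such copies can match several genes. Of the 100-base windows of the principal transcript, 44.8% in Fbxw14 (756 of 1687) were found letter for letter in a transcript of Fbxw28, and 46.2% in Fbxw28 (646 of 1398) in one of Fbxw14. In the other 8 members the share found in any other gene was 0 in Fbxw16 and Fbxw24, 0.915% in Fbxw18, 1.06% in Fbxw20, 1.44% in Fbxw13, 1.88% in Fbxw19, 2.29% in Fbxw15 and 3.26% in Fbxw21. The separate values of Fbxw14 and Fbxw28 are therefore uncertain, and their sum is given beside them. The oocytes also carry DBA alleles, and how their differences from the reference act on the division of reads was not tested.

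**Figure D1:**
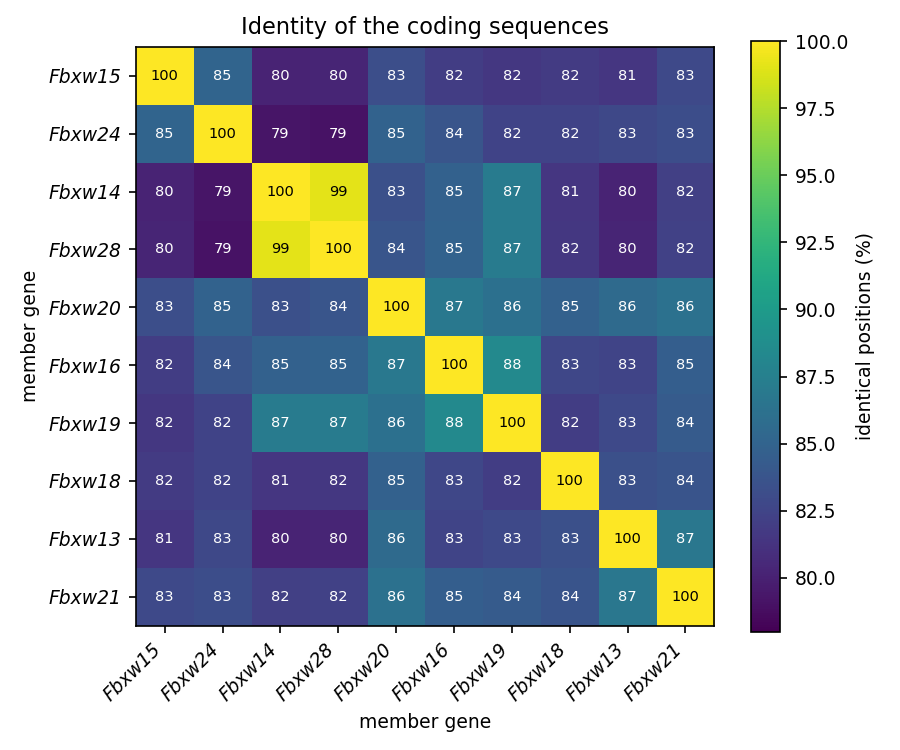
Heat map of the percent of identical positions in global alignments of the coding sequences of the 10 member genes (both axes), coloured from low (dark) to high (yellow). The square of Fbxw14 and Fbxw28 stands out at 99.1%, while every other pair lies between 79.1% and 88.4%.

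Most transcripts of the family had a short annotated end. The annotated 3' UTR was under 100 bases in 9 of 10 members (52 to 86 bases), compared with 6.58% of the 20414 genes with an annotated 3' UTR. Its median length was 58 bases in the members and 853 bases over those genes. The exception was Fbxw14 with 348 bases. Between pairs of the 9 short 3' UTRs the identity was 52.3% to 94.8%, with a median of 74.6%. The poly(A) signal AATAAA lay in the last 50 bases of 9 of 10 members and of 62.3% of the 19935 genes with a 3' UTR of at least 50 bases. In Fbxw14 it lay 306 bases before the annotated end. The variant ATTAAA was in 0 members (17.1% of the 19935 genes), and the words of the cytoplasmic polyadenylation element in the same last 50 bases, TTTTAT (7.23%) and TTTTAAT (2.85%), were in 0 members too. Since the 3' UTRs of the members are alike, these counts of members are not independent cases either. The 28 bases around the signal, which is in capitals, are shown in their 8 distinct forms. Fbxw16, Fbxw18 and Fbxw24 had the same letters there.
Fbxw16, Fbxw18 and Fbxw24: ttcctcaatgatAATAAAggtctatttg
Fbxw13: ttcctcgatgatAATAAAagtctatttg
Fbxw15: ttcctcaaagatAATAAAggcctatttg
Fbxw21: ttcctcaatgatAATAAAagtctatttg
Fbxw14: ttactcaatgatAATAAAggtctatttg
Fbxw28: ttactcaatgatAATAAAggtctatttc
Fbxw19: ttccttaatgatAATAAAgatatatttg
Fbxw20: ttcctcaatgatAATAAAggtctttttg

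Library quality bears on all values. The 4 libraries had 15281 (GV), 15358 (MII), 15440 (TubA-10) and 14434 (TubA-20) genes above 0 FPKM, the unit of all levels here, which counts fragments relative to the length of the transcript and the size of the library. Each rise or fall below is thus relative to the other mRNAs of the library, and amounts per oocyte were not measured. Counts of reads were not used here, and the depth relative to GV estimated from the lowest values rests on read-sized steps. Of the low-gene values already near that estimate, 21.2% to 77.6% fell close to it, depending on the library, so no counting error is given. All 12 of 12 oocyte markers were at 1 FPKM or more in each library. Of 12 cumulus and granulosa markers, 2 to 5 were at 0, 2 to 4 were at 1 FPKM or more, and their summed level was 19.9 to 24.6 FPKM. Foxl2 was at 0 in all 4 libraries. The highest of these markers was Nr5a2 in GV (9.23 FPKM), MII (10.1) and TubA-10 (11.5), and Cyp19a1 in TubA-20 (10.3). The 7 blood markers summed to at most 0.297 FPKM.

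Most members were among the most abundant mRNAs of the oocyte, while Fbxw13 ranked 1146th in GV and 3564th in TubA-20. Added up, the 10 members came to 7306 FPKM in GV, 6641 in MII, 9202 under TubA-10 and 6047 under TubA-20. This was 1.17%, 1.17%, 1.56% and 0.964% of all FPKM of the library. The sum was thus highest at the lower dose and lowest at the higher dose. Changes are log2 ratios of FPKM + 1. On this scale the sum differed from GV by -0.14 in MII, 0.33 under TubA-10 and -0.27 under TubA-20, and from MII by 0.47 under TubA-10 and -0.13 under TubA-20. The distance between the 2 doses was wider, at -0.61 for TubA-20 against TubA-10. None of these sums passed 2-fold. Without Fbxw24 the changes from GV were -0.33 in MII, 0.12 under TubA-10 and -0.39 under TubA-20, and those from MII were 0.45 and -0.06 at the 2 doses. With FPKM scaled to equal Gapdh, the MII value turned to 0.09, and the other 5 kept their sign under every alternative tried.

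**Figure D2:**
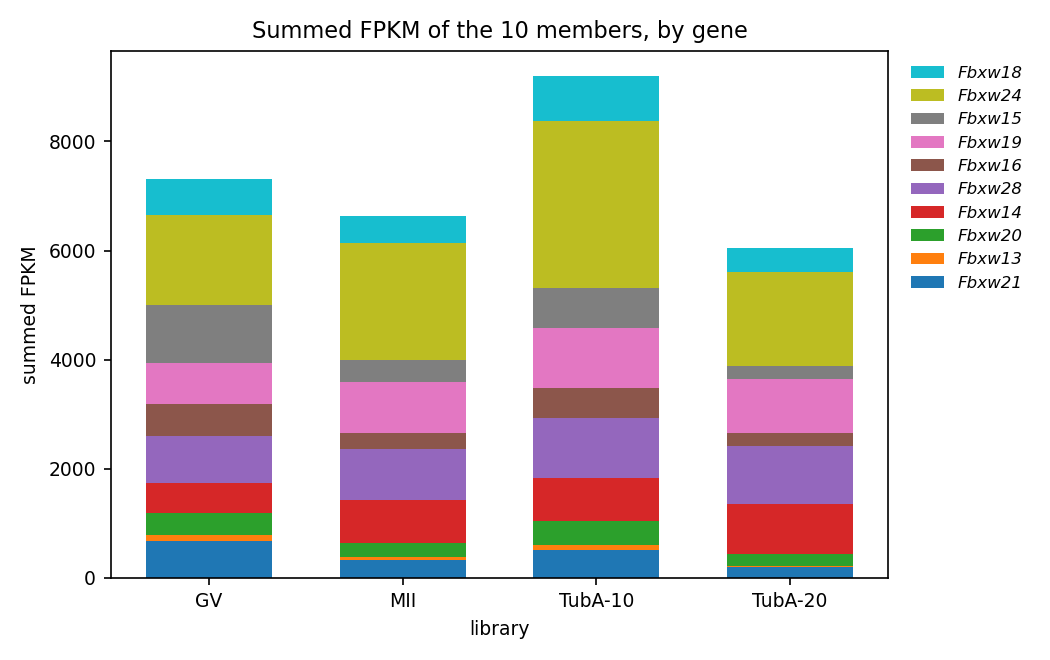
Stacked bars of the FPKM of the 10 members added up in each of the 4 libraries, coloured by gene. The bars reach 7306 (GV), 6641 (MII), 9202 (TubA-10) and 6047 (TubA-20), and the block of Fbxw24 is the tallest in each.

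The make-up of the sum was uneven. Fbxw24 held 22.6% of it in GV, 32.3% in MII, 33.2% under TubA-10 and 28.5% under TubA-20. Fbxw15 held 14.5% in GV, which was second in that library, but 6.02%, 8.04% and 4.13% in MII, TubA-10 and TubA-20. Fbxw14, Fbxw19 and Fbxw28 held 7.67%, 10.4% and 11.8% in GV, and 15.2%, 16.2% and 17.6% in TubA-20. The ratio of the highest to the lowest member was 14.8 in GV, 42.5 in MII, 32.5 under TubA-10 and 76.6 under TubA-20. Most members ranked within the 500 genes of highest FPKM, with 9 of 10 in GV, MII and TubA-10 and 6 of 10 in TubA-20.

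Fbxw24 stood at 1650.3 FPKM in GV, 2142 in MII, 3056 under TubA-10 and 1723 under TubA-20. It was the 7th most abundant gene of the table in TubA-10 and the 32nd in GV. Its value in TubA-10 was 0.89 above GV on the log2 scale, within 2-fold unless libraries were scaled to equal Gapdh, when it reached 1.16. Between TubA-20 and GV it was 0.06, and -0.13 after the median change was set to 0.

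Fbxw28 had 863 FPKM in GV, 932 in MII, 1103 under TubA-10 and 1064 under TubA-20. Its near copy Fbxw14 had 560.1, 798, 793 and 921 FPKM in the same order. Both were lowest in GV. Their sum was 1423 FPKM in GV, 1730.1 in MII, 1896 under TubA-10 and 1985 under TubA-20, or 0.28, 0.41 and 0.48 above GV on the log2 scale. Against MII the sum was 0.13 higher under TubA-10 and 0.20 higher under TubA-20. The ratio of Fbxw28 to Fbxw14 was 1.54, 1.17, 1.39 and 1.15 in the same order of libraries. This division between the copies rests on the shared fragments described above.

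Fbxw19 had 757 FPKM in GV, 947 in MII, 1087 under TubA-10 and 979.7 under TubA-20. Like Fbxw14, Fbxw24 and Fbxw28 it had its lowest value in GV, and no change of it from GV exceeded 0.52 on the log2 scale. Its coding sequence was 88.4% identical to that of Fbxw16 and 87.2% to those of Fbxw14 and Fbxw28.

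Fbxw15 had 1059.5 FPKM in GV, 399.6 in MII, 739.8 under TubA-10 and 249.6 under TubA-20. It fell by 1.40 on the log2 scale in MII and fell by 2.08 in TubA-20, and stood at -0.52 in TubA-10, all against GV. Expressed as ratios, GV exceeded MII 2.65-fold and TubA-20 4.25-fold. In rank it went from 67th in GV to 473rd in TubA-20.

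Fbxw21 had 676 FPKM in GV, 322 in MII, 506 under TubA-10 and 191 under TubA-20. It fell by 1.07 in MII and fell by 1.82 in TubA-20 on the log2 scale against GV. Fbxw13, its closest relative among the members at 86.7% identity, was the least abundant member in all 4 libraries, with 111 FPKM in GV, 50.4 in MII, 94.1 under TubA-10 and 22.5 under TubA-20. Its decline was the widest of the 10 in TubA-20, at -2.26 on the log2 scale or 4.94-fold, and in MII it fell by 1.12. It was the 1 member beyond 2-fold between TubA-20 and MII (-1.13).

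Fbxw16 had 572 FPKM in GV, 289 in MII, 548 under TubA-10 and 236 under TubA-20. Its value in MII was -0.98 against GV, just short of 2-fold, and -1.11 with the median change set to 0, and in TubA-20 it fell by 1.27. Fbxw13, Fbxw15, Fbxw16 and Fbxw21 shared 1 order of libraries, with GV highest, then TubA-10, then MII, and TubA-20 lowest. For Fbxw16 the step from GV to TubA-10 was -0.06 and turned to 0.02 with equal FPKM sums and to 0.21 when Gapdh was set equal, and for Fbxw13 it was -0.24 and turned to 0.03 with equal Gapdh.

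Fbxw18 had 660.1 FPKM in GV, 501 in MII, 832 under TubA-10 and 433 under TubA-20. Fbxw20 had 397, 259.6, 442 and 228 FPKM in the same order. These 2 genes shared an order in which TubA-10 was highest, followed by GV, MII and TubA-20. Their differences from GV were all within 2-fold, from -0.80 to 0.33 on the log2 scale.

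**Figure D3:**
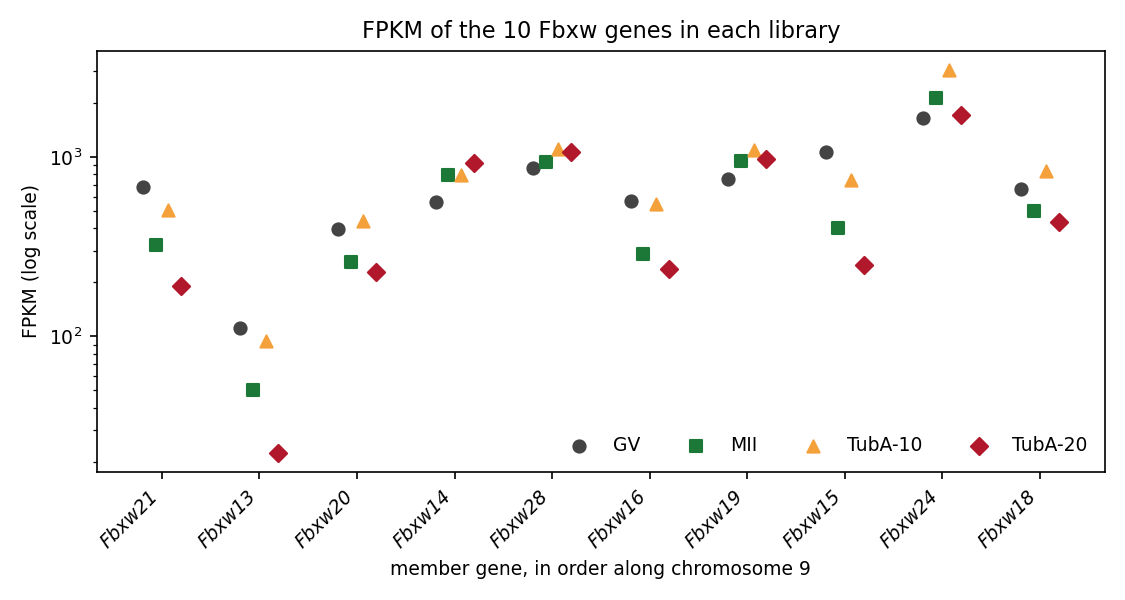
FPKM on a log axis for each of the 10 member genes, ordered along chromosome 9, with 1 point per library (grey circle GV, green square MII, orange triangle TubA-10, red diamond TubA-20). Fbxw24 is the highest gene in each library (1650.3 to 3056 FPKM) and Fbxw13 the lowest (22.5 to 111 FPKM).

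Taking the members by their highest library, 5 peaked in TubA-10, 4 in GV, 1 in TubA-20 (Fbxw14) and 0 in MII. Their lowest value was in TubA-20 in 6 and in GV in 4. These counts rest on unscaled FPKM, and the same counts were not made over all genes. Fbxw14 and Fbxw28 added up were highest in TubA-20 (1985 FPKM, and 1896 under TubA-10). With the median change set to 0, Fbxw24 in TubA-20 (-0.13) and Fbxw28 in MII (-0.01) lay below GV. Sequence likeness and change did not run in parallel in every pair. Fbxw16 and Fbxw19, 88.4% identical, were at -1.27 and 0.37 in TubA-20 against GV, and Fbxw15 and Fbxw24, 85.1% identical, were at -2.08 and 0.06. Fbxw13 and Fbxw21 were both down, at -2.26 and -1.82.

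Maturation without TubA was addressed by MII against GV. Beyond 2-fold, 3 of 10 members fell (Fbxw13, Fbxw15 and Fbxw21) and 0 rose, beside 8.34% of all genes lower and 3.05% higher, or 20.8% lower and 8.26% higher of the 7685 genes with at least 5 FPKM in 1 of the libraries compared. In sign alone, 4 members were higher and 6 lower, beside 4104 higher and 3581 lower of those 7685 genes. The median of the members was -0.50, and that of the genes with at least 5 FPKM was 0.11. With equal FPKM sums or equal Gapdh, 1 member (Fbxw15) remained past 2-fold. The sign of Fbxw28 (0.11) turned to -0.01 with the median change set to 0.

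The lower dose was set against GV in the same way. For TubA-10 against GV, 0 of 10 members were past 2-fold in either direction, beside 0.742% of all genes higher and 5.6% lower, and 1.77% higher and 14.2% lower among the 7579 genes with at least 5 FPKM. There were 6 members above and 4 below GV, with a median of 0.24 against 0.15 for those genes. Of those genes, 4348 were above GV and 3231 below. The highest member was Fbxw24 (0.89) and the lowest Fbxw15 (-0.52).

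For TubA-20 against GV, 4 of 10 members fell past 2-fold (Fbxw13, Fbxw15, Fbxw16 and Fbxw21) and 0 rose. Of all genes, 11.7% were lower and 7.61% higher, and of the 7778 with at least 5 FPKM, 26.8% were lower and 20.2% higher. The member median was -0.70 and the median of the 7778 genes was 0.23. The other 6 members ranged from -0.80 (Fbxw20) to 0.72 (Fbxw14). The changes of MII, TubA-10 and TubA-20 from GV share the same GV library and are set side by side as descriptions. GV oocytes had 0 h of culture and oocytes in TubA 12 h. Drug, culture and meiotic progress therefore cannot be told apart in the changes of TubA-10 and TubA-20 from GV. In MII, without TubA, Fbxw13, Fbxw15, Fbxw16 and Fbxw21 were at -0.98 to -1.40 against GV.

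**Figure D4:**
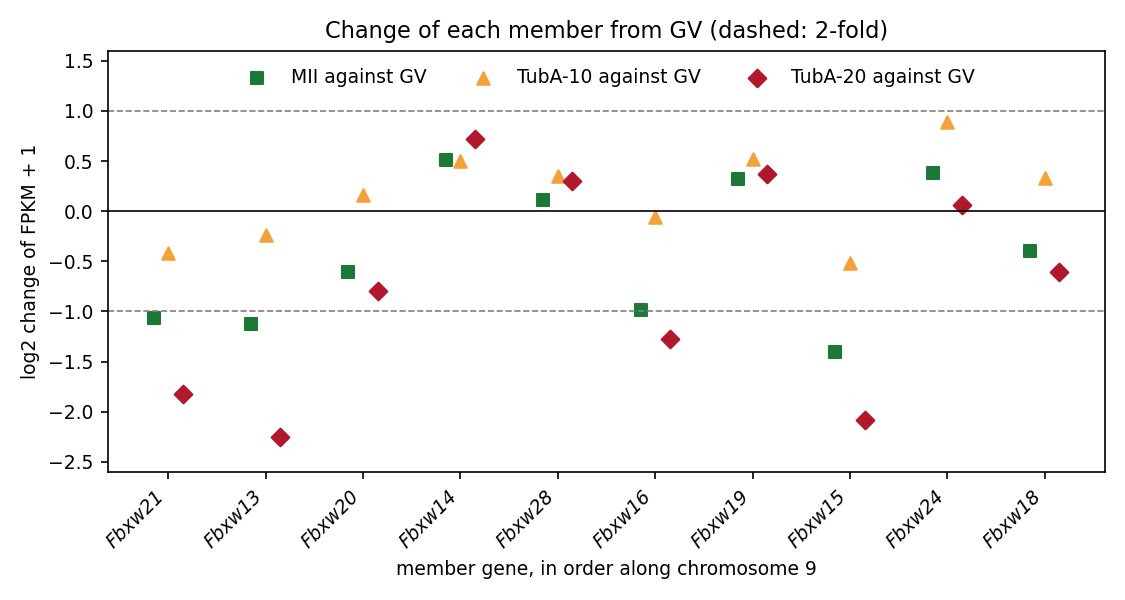
Log2 change of FPKM + 1 from GV for each member gene, ordered along chromosome 9, in MII (green squares), TubA-10 (orange triangles) and TubA-20 (red diamonds), with dashed lines at 2-fold. The red points of Fbxw13, Fbxw15, Fbxw16 and Fbxw21 lie below the lower line (-1.27 to -2.26), and every orange point lies between the lines.

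Both doses were also set against MII, at equal culture time. MII oocytes were kept by their polar body, while the study describes oocytes in TubA as failing to extrude one, so drug, meiotic stage and selection cannot be told apart in these comparisons. For TubA-10 against MII, 9 of 10 members were higher and 1 (Fbxw14, -0.01, or 0.03 with equal Gapdh) was lower, and the median was 0.69 beside 0.01 over genes with at least 5 FPKM. Of those 7292 genes, 3692 were higher and 3600 lower. No member passed 2-fold (0 higher, 0 lower), beside 0.515% of all genes higher and 0.128% lower, and 1.29% and 0.206% of the 7292 with at least 5 FPKM. The members closest to 2-fold were Fbxw16 (0.92), Fbxw15 (0.89) and Fbxw13 (0.89).

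For TubA-20 against MII, 3 members were higher and 7 lower, with a median of -0.25 beside 0.06. Of the 7197 genes with at least 5 FPKM, 4004 were higher and 3193 lower. Past 2-fold, 1 of 10 fell (Fbxw13) and 0 rose, beside 2.44% of all genes lower and 0.328% higher, and 6.09% and 0.542% of the 7197 with at least 5 FPKM. The members above MII, Fbxw14 (0.21), Fbxw28 (0.19) and Fbxw19 (0.05), were within 0.21 of it, and Fbxw19 turned to -0.09 with equal FPKM sums and to -0.11 when Gapdh was set equal.

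Set against each other, the 2 doses differed in 1 direction for nearly all members. In TubA-20 against TubA-10, 9 of 10 were lower and 1 (Fbxw14, 0.22) higher, with a median of -0.95 beside 0.11 over genes with at least 5 FPKM. Of those 7374 genes, 3284 were lower and 4090 higher. Of the 9 members, Fbxw28 (-0.05) turned to 0.02 when libraries were scaled to equal upper quartiles. The sum of Fbxw14 and Fbxw28 stood at 0.07, so the count of Fbxw28 as lower rests on the uncertain division between the copies. Past 2-fold, 4 members fell, Fbxw13 (-2.02), Fbxw15 (-1.56), Fbxw21 (-1.40) and Fbxw16 (-1.21), and 0 rose. Of all genes, 5.52% were lower and 0.66% higher, and of the 7374 genes with at least 5 FPKM, 14.1% were lower and 1.45% higher. With the median change set to 0 the count of members that fell was 5, since Fbxw20 (-1.01) passed, and with equal FPKM sums it was 6, with Fbxw18 (-1.03) and Fbxw20 (-1.04). With equal Gapdh it was 7, since Fbxw18 (-1.14), Fbxw20 (-1.15) and Fbxw24 (-1.02) then passed too.

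**Figure D5:**
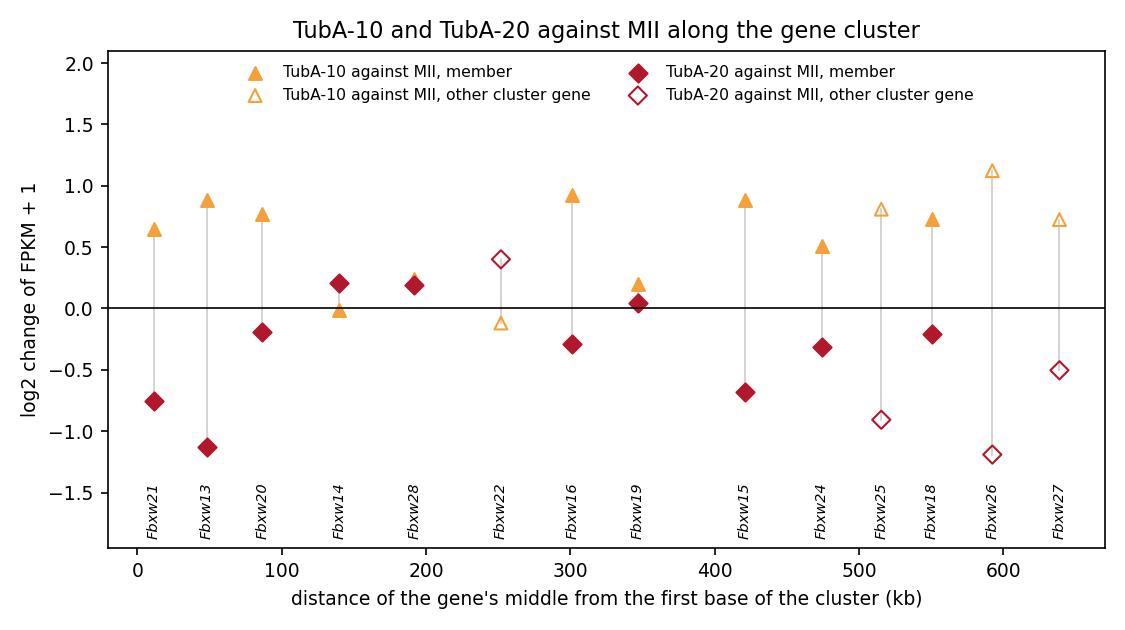
Log2 change of FPKM + 1 against MII in TubA-10 (orange triangles) and TubA-20 (red diamonds) for the 14 Fbxw genes of the chromosome 9 run, placed by the distance of each gene's middle from the first base of the run in kb (filled: the 10 members, open: the other 4). In 9 of 10 members the orange point lies above the red one, and Fbxw14 is the exception (-0.01 and 0.21).

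The other 4 genes of the run ranged from -2.31 to 1.04 in TubA-20 against GV, where the members ranged from -2.26 to 0.72. Fbxw22, 92.3% identical to Fbxw14 in coding sequence, had 217 FPKM in GV, 338 in MII, 311 under TubA-10 and 447 under TubA-20, and rose by 1.04 on the log2 scale in TubA-20 against GV. Fbxw26, 89.7% identical to Fbxw16, had 255 FPKM in GV, 117 in MII, 256 under TubA-10 and 50.6 under TubA-20, and fell by 2.31 in the same comparison. Fbxw25 (-1.51) and Fbxw27 (-1.45) fell as well. The 10 Fbxw genes elsewhere in the genome, counted with Btrc, which encodes the F-box protein that recognises phosphorylated beta-catenin, were mostly less abundant, with a median of 4.59 FPKM in GV and 4.91 in TubA-20 against 668 and 341 in the members. The highest of them in GV was Fbxw4, with 176 FPKM in GV, 230.4 in MII, 311 under TubA-10 and 368 under TubA-20. In TubA-20 against GV, 3 of these 10 rose and 2 fell past 2-fold, among them Fbxw7, which recognises cyclin E (1.24), and Btrc (-2.05). Over all genes, 7.61% rose and 11.7% fell past 2-fold in that comparison.

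Cul1, Skp1a and Rbx1, partners of F-box proteins, had levels within the range of the members in each library. Skp1a, the adaptor that binds the F-box, had 919 FPKM in GV, 798 in MII, 1067.5 under TubA-10 and 386 under TubA-20. It was thus lowest in TubA-20, like 6 of the members, and fell by 1.25 on the log2 scale against GV. Cul1, the scaffold, had 389, 682, 581 and 847 FPKM, and rose by 1.12 in TubA-20 against GV. The RING proteins differed, with Rbx1 (260.5 FPKM in GV) at 0.65 and Rnf7 (20.4 FPKM in GV) at -1.19 in that comparison. Of 13 genes for the NEDD8 cycle and cullin exchange, Uba3 (1.29), part of the NEDD8-activating enzyme, and Dcun1d4 (1.10) rose in TubA-20 against GV, and Ube2f (-2.03), a NEDD8-conjugating enzyme, and Cops5 (-1.75), the deneddylating subunit of the COP9 signalosome, fell. In MII against GV 2 of the 13 rose (Uba3 and Dcun1d4) and 0 fell. These calls are past 2-fold. Over all genes, 7.61% were higher and 11.7% lower in TubA-20 against GV, and 3.05% and 8.34% in MII against GV.

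Among the other F-box classes, 18 Fbxl genes and 36 Fbxo genes were in the table. Their medians in GV were 4.85 and 7.15 FPKM, and the 3 highest were Fbxl6 (247 FPKM), Fbxo34 (107) and Fbxo5 (101), the last an inhibitor of the anaphase-promoting complex. In GV each of the members other than Fbxw13 exceeded all 3 of these. Fbxo43, the inhibitor that holds the egg at metaphase II, had 16.9 FPKM in GV, 38.9 in MII, 30.2 under TubA-10 and 34.3 under TubA-20. In TubA-20 against GV, 2 Fbxl genes rose and 4 fell past 2-fold, and 4 Fbxo genes rose and 6 fell. The shares of all genes were 7.61% higher and 11.7% lower.

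The course of the summed members over the 4 libraries was compared with that of each of 6358 genes with at least 10 FPKM in 1 library, by the distance between log2 values centred on each gene's mean. The nearest were Dapk3 (0.0463), Pfdn5 (0.0581), a prefoldin subunit, Orc4 (0.0624), a subunit of the origin recognition complex, Itm2b (0.0681) and Cdt1 (0.0759), a replication licensing factor. With 4 points per gene, this is a description of shape only.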

How the data were processed

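The authors aligned paired reads (stranded libraries) to mm10 with STAR 2.5.0, per the labels, and made FPKM values with Cufflinks and Cuffdiff 2.2.1. They deposited 1 table of FPKM values for 21959 entries, of which 165 matched no symbol. Entries with a shared symbol were added up, giving 21957 genes. How reads that match several copies were divided is set by the quantifier's options, which the methods give as default. Changes are log2 ratios of FPKM + 1, which understate those of low genes, and count as called past 2-fold. No count of reads was used, and no test could be run with 1 library per condition. The members and gene lists were chosen with earlier results of these data known. All members were named, the other genes by lists of SCF genes, relatives, the 3 highest of other F-box genes and the 5 most similar patterns. Identity came from global alignments of coding sequences in place of proteins, on GENCODE M21 transcripts (GRCm38), with Biopython 1.88, pandas 2.3.3 and numpy 2.4.6. Motifs were searched in RefSeq promoters and in the last 50 bases of transcripts. Alternatives were 4 scalings, 2 other pseudocounts, 2 filters on low FPKM, a 3-fold threshold, sums without Fbxw24 or over all 14 genes of the run and, added after seeing the data, Fbxw14 and Fbxw28 as 1 gene. The steps were checked on simulated data.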

Additional observations from a re-analysis of the deposited data

How the results depend on the processing

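No paired analysis was possible because each condition had 1 library, and no library could be left out. Of the 480 values of single members under alternatives, 468 kept their side of the 2-fold threshold, 4 lost it, 8 gained it, and 9 near 0 changed sign within 2-fold, each named in the results. The filters at 1 and 5 FPKM could not change any of these values, since the lowest member value was 22.5 FPKM. The other pseudocounts moved none across 2-fold, so every value that lost or gained its side came from a scaling. The 48 values of the summed members stayed within 2-fold. The number of members lower in MII against GV went from 3 to 1 with equal FPKM sums, 1 with equal Gapdh and 0 at 3-fold, and was 4 with the median change set to 0. In TubA-20 against GV it went from 4 to 3 at 3-fold. In TubA-10 against GV the number higher went from 0 to 1 with equal Gapdh. In TubA-20 against MII the number lower went from 1 to 0 at 3-fold, and in TubA-20 against TubA-10 from 4 to 5 with the median change set to 0, 6 with equal FPKM sums, 7 with equal Gapdh and 1 at 3-fold. The cause was not tested. Among 9193 genes at 1 FPKM or more in every library, the median log2 change was 0.13 in MII, 0.14 under TubA-10 and 0.19 under TubA-20 against GV.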
